A study of Rattus norvegicus with 2 samples.

Results

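Solute carriers are membrane proteins that move ions, sugars, phosphate and metals across the plasma membrane or the membranes of organelles. The genes described here are those whose symbol places them in 16 carrier families: Slc2, Slc4, Slc5, Slc8, Slc9, Slc11, Slc12, Slc20, Slc24, Slc26, Slc30, Slc31, Slc34, Slc39, Slc40 and Slc41. The symbol alone chose them, and 97 of the 17049 genes in the deposited table matched. The rule also takes in 3 genes that encode no carrier: Slc9a3r1 and Slc9a3r2, which RefSeq now names Nherf1 and Nherf2 and which encode scaffold proteins, and Slc4a1ap, which encodes an adaptor named after the anion exchanger Slc4a1.

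The RNA came from primary cultures of oligodendrocyte precursor cells (OPCs), taken from the brain of wild-type rats as adults. OPCs are the glial cells from which myelinating oligodendrocytes arise. The Aβ culture received 1 µM amyloid-β for 2 days, and the control is labelled DMSO, a solvent. Both grew in OGM medium at 37 °C and 5% CO2. There was 1 library per group, of 15704932 estimated reads (Aβ) and 15663751 (control). No difference below has a replicate check, and the labels do not say how many animals gave each culture. The treatment text of both samples speaks of Aβ exposure, and the control was taken from its treatment label.

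Glial cells use these carriers for well-known tasks. Sodium-phosphate cotransporters bring in phosphate, bicarbonate carriers and sodium-proton exchangers set the pH of the cell, and cation-chloride cotransporters set its chloride and volume. Iron matters to the oligodendrocyte lineage in particular, since enzymes of lipid and cholesterol synthesis need it. Zinc carriers work in largely opposing families, with Slc39 (ZIP) proteins moving zinc into the cytosol and most Slc30 (ZnT) proteins moving it out.

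Levels are given in TPM, the authors' unit that takes the length of a gene and the size of the library into account, and a gene counted as measured at 1 TPM or more in either library. Differences are given as read ratios, the reads per total reads with Aβ over those in the control, each with an exact Clopper-Pearson 95% interval that covers counting error only. Where the whole interval lies above or below 1, the gene counts as higher or lower by reads. This compares 2 libraries, not the conditions. In such bulk RNA, fewer cells of a type and less RNA per cell cannot be told apart.

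Markers gave a mixed picture of the cultures. Of 14 OPC markers in the table, 12 were measured, with Olig1 at 1421 TPM with Aβ against 1557 TPM in the control, Olig2 at 336 and 375 TPM, Pdgfra at 23.2 and 24.6 TPM and Cspg4, which encodes NG2, at 6.65 and 3.70 TPM. Of the 12, 6 had a higher TPM with Aβ and 6 a lower one. The lineage factor Sox10 was close to the minimum, at 0.84 and 1.22 TPM. Astrocyte markers were abundant, with all 8 measured, a summed level of 2327 and 2336 TPM, and Gfap at 328 and 368 TPM. Microglia markers (9 of 10 measured) summed to 221 TPM with Aβ against 270 TPM in the control. Neuron markers (7 of 8) summed to 137 and 134 TPM, and oligodendrocyte markers (9 of 12) to 220 and 235 TPM. Most of the neuron sum was Map2 alone (105 and 107 TPM), and most of the oligodendrocyte sum was Cnp alone (169 and 178 TPM). Endothelial markers summed to 4.75 and 4.54 TPM and pericyte and fibroblast markers to 3.09 and 6.49 TPM. Choroid plexus and ependyma markers summed to 9.07 and 9.89 TPM. Which of these cells carried each transporter was not tested.

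Of the 97 genes, 68 were measured and 29 lay below 1 TPM in both libraries. The carrier genes did not shift together. Of the 68, 38 had a higher TPM with Aβ against 30 a lower one, and the median log2((Aβ TPM + 1)/(control TPM + 1)) was 0.02, beside 0.01 over all 12980 measured genes. By reads, 11 of the 68 (16.2%) were higher with Aβ and 9 (13.2%) lower, where 12% and 12.5% of all measured genes were so called. These shares depend on depth, and the median number of reads over both libraries was 802 for the carriers and 1002 for all measured genes. Among the 58 carriers with 200 or more reads, 17.2% were higher and 15.5% lower, beside 13.1% and 13.7% of the 10581 such genes in all.

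Large differences were few. On the log2(TPM + 1) scale 1 carrier, Slc40a1, was at least 1.5-fold higher with Aβ and 1, Slc24a2, at least 1.5-fold lower, beside 1.56% and 1.34% of all measured genes. Slc40a1 counted as measured through its Aβ level alone, as it was under 1 TPM in the control. The share of carriers past this fold (2.94%) was close to that of all genes (2.9%). By reads, 57 of the 68 measured carriers lay within 1.3-fold of equal. The same share was not counted over all measured genes, so this cannot be called particular to the carriers. Carriers called by reads are described below by the solute they move, with main carriers that were not called.

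**Figure D1:**
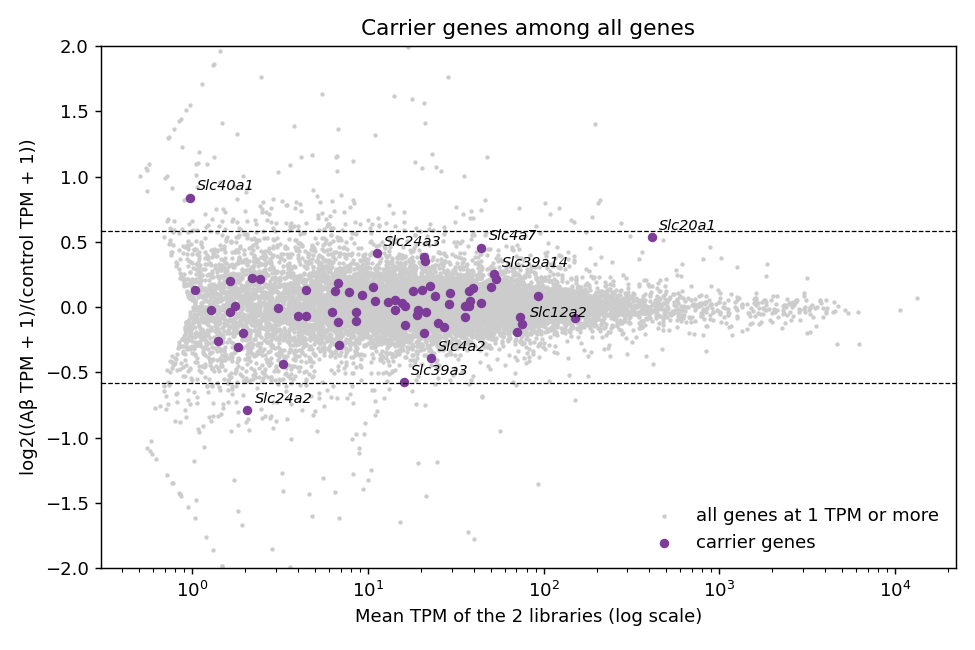
Mean TPM of the 2 libraries (x axis, log scale) against log2((Aβ TPM + 1)/(control TPM + 1)) (y axis) for all 12980 measured genes in grey and the 68 measured carrier genes in purple; dashed lines mark 1.5-fold and 28 genes fall outside the plotted range. Slc40a1 and Slc24a2 lie past the lines at low levels, and Slc20a1 stands near the upper line at a level where few genes are far from 0.

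Phosphate carriers held the clearest difference. Slc20a1 (gene number 81826), which encodes the sodium-phosphate cotransporter PiT-1, was the most abundant of the 97 genes, at 490 TPM with Aβ against 338 TPM in the control. Its 13718 reads with Aβ against 9282 without gave a ratio of 1.47 (95% interval 1.44 to 1.51). By TPM it ranked 275th of all genes with Aβ and 420th in the control.

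Its sister gene Slc20a2, which encodes the cotransporter PiT-2, did not share this difference. It stood at 35.9 TPM with Aβ against 35.7 TPM in the control, on 1250 and 1258 reads (0.991, 0.916 to 1.07). Slc20a1 therefore made up 91.6% of the reads of both genes with Aβ (exact 95% interval 91.2 to 92.1) and 88.1% in the control (87.4 to 88.7). The epithelial phosphate carrier Slc34a2 was listed at 0 reads with Aβ against 1 without, and a count of 0 is compatible with up to 3 reads in that library.

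The sum over the carrier families moved mostly with Slc20a1. All 97 genes together reached 2026 TPM with Aβ against 1852 TPM in the control, of which Slc20a1 was 24.2% and 18.3%. The summed read ratio was 1.09 (1.08 to 1.11) with Slc20a1 and 1.02 (1.01 to 1.03) without it. The gene for the phosphate exporter Xpr1, which is not of these families, was lower with Aβ, at 27.6 and 31 TPM (0.885, 0.792 to 0.989).

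**Figure D2:**
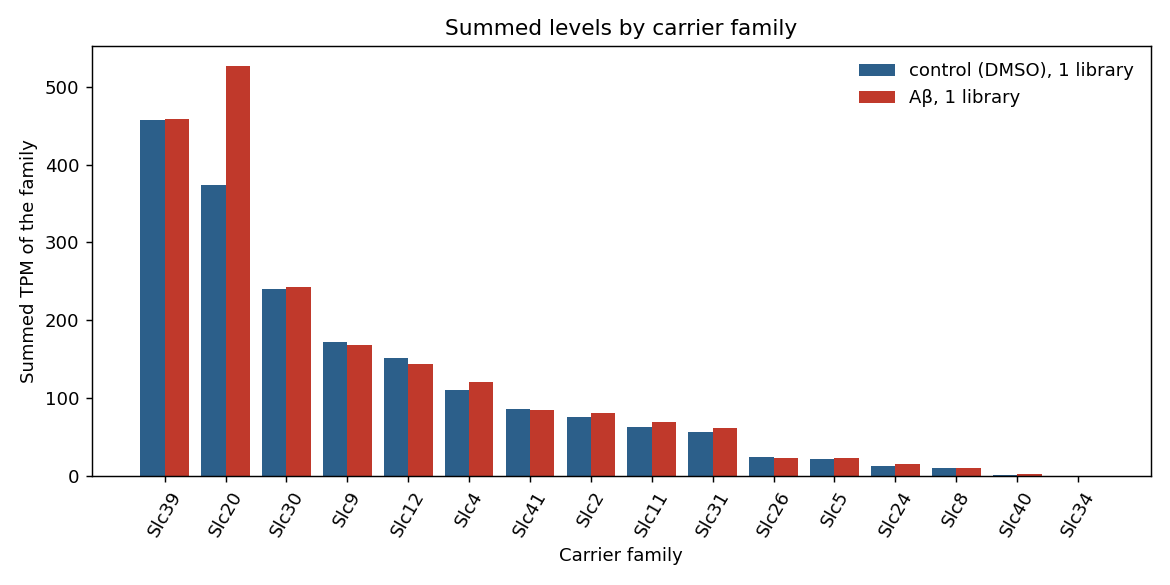
Summed TPM (y axis) of each carrier family (x axis) in the control library (blue) and the Aβ library (red), 1 library each, with no error bars because there are no replicates. Slc39 held the largest sum in the control (458 TPM), and Slc20 the largest with Aβ (526 TPM, against 374 TPM in the control).

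The bicarbonate carriers called by reads had opposite functions and differed in opposite directions. Slc4a7 (gene number 117955), which encodes the electroneutral sodium-bicarbonate cotransporter NBCn1 that loads cells with base, was at 51.3 TPM with Aβ against 37.1 TPM in the control. Its 3815 and 2779 reads gave a ratio of 1.37 (1.304 to 1.44). Slc4a2 (gene number 24780), which encodes the chloride-bicarbonate exchanger AE2 that exports base, was at 19.7 TPM and 26 TPM, on 749 and 1003 reads (0.745, 0.677 to 0.820).

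Slc4a7 was the higher of these genes in both libraries, and the distance between them was wider with Aβ. The TPM of Slc4a7 was 2.61 times that of Slc4a2 with Aβ and 1.42 times in the control, a comparison chosen after the values were seen. The electrogenic sodium-bicarbonate cotransporter gene Slc4a4 (NBCe1), a major bicarbonate carrier of astrocytes, was at 15.68 and 15.35 TPM (1.01, 0.933 to 1.10). The sodium-driven exchanger gene Slc4a8 was at 6.42 and 7.04 TPM (0.882, 0.773 to 1.01), the anion exchanger gene Slc4a3 at 2.43 and 1.94 TPM (1.19, 0.871 to 1.63), and the adaptor gene Slc4a1ap at 23.97 and 21.4 TPM (1.12, 0.982 to 1.27). These 4 genes were not called.

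Among the sodium-proton exchangers, Slc9a9, an exchanger of endosomes, was lower with Aβ, at 2.63 and 3.90 TPM on 87 and 130 reads (0.667, 0.503 to 0.882). The Golgi and endosomal exchanger genes Slc9a7 and Slc9a8 were not called. Slc9a7 was at 7.21 and 6.24 TPM (1.15, 0.963 to 1.36) and Slc9a8 at 24.8 and 23.2 TPM (1.04, 0.950 to 1.14).

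The scaffold genes of this family went opposite ways. NHERF proteins hold carriers and receptors at the membrane by linking them to ezrin. Slc9a3r1 was at 65.4 TPM with Aβ against 74.8 TPM in the control, on 810 and 925 reads (0.873, 0.794 to 0.961). Slc9a3r2 was at 23.7 and 18 TPM, on 455 and 341 reads (1.33, 1.15 to 1.54). Of the reads of both, Slc9a3r1 held 64.0% with Aβ (61.3 to 66.7) and 73.1% in the control (70.5 to 75.5).

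Of the Slc26 anion exchangers, Slc26a2 was called. It encodes the sulfate carrier that supplies sulfate for proteoglycan chains, and was lower with Aβ at 6.04 and 7.62 TPM on 310 and 381 reads (0.812, 0.696 to 0.945). Slc26a6, the most abundant member, was the 1 gene of 74 carriers with 20 or more reads whose TPM ratio and read ratio parted by 1.2 times or more. It had more reads with Aβ (285 against 242, ratio 1.17, 0.986 to 1.4) yet a slightly lower TPM (8.39 against 8.63). Such parting occurred in 1.04% of all genes with 20 or more reads.

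Other genes of pH control, from a list of 19 in the table, were split 5 higher and 1 lower by reads among 16 measured. This stood beside 12% and 12.5% of all measured genes, and the median log2 ratio of the list was 0.03. Named by the size of their ratio, the proton channel gene Hvcn1 had 66 and 41 reads (1.61, 1.07 to 2.43), carbonic anhydrase Car2 375 and 312 reads (1.2, 1.03 to 1.4), and Car14 42 and 54 reads (0.776, 0.506 to 1.18).

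Sodium-calcium exchangers expel calcium from the cell, and those of the Slc24 family carry potassium along. Slc24a2 (gene number 84550), which encodes NCKX2, known from neurons and cone photoreceptors, had the lowest read ratio of the measured carriers. It stood at 1.24 TPM with Aβ against 2.87 TPM in the control, on 110 and 257 reads (0.427, 0.338 to 0.536). Slc24a3, which encodes the more widely expressed NCKX3, was higher with Aβ, at 13.0 and 9.49 TPM on 466 and 343 reads (1.36, 1.18 to 1.56).

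By reads, the makeup of the family therefore differed between the libraries while its total did not pass counting error. Slc24a2 held 19.1% of the reads of both genes with Aβ (16 to 22.5) and 42.8% in the control (38.8 to 46.9). The summed family had a read ratio of 0.957 (0.854 to 1.07). By TPM, Slc24a2 was 0.096 times Slc24a3 with Aβ and 0.302 times in the control. The summed TPM of the family went the other way from its reads, at 14.6 with Aβ against 12.8 in the control. Neuron markers, measured alongside this family, were 2 higher and 2 lower by reads among 7, beside 12% and 12.5% of all measured genes. Of these markers, Snap25 was at 8.47 and 5.62 TPM and Syt1 at 0.61 and 1.35 TPM. Their part in the difference of Slc24a2 was not tested.

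The 250 bases before the RefSeq start of Slc24a2 are shown because it was the lowest of the measured carriers by ratio (GRCr8, chr5:106787781-106788030, minus strand). Capitals mark matches to the metal response element searched below, and 65.2% of the bases were G or C.

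Slc24a2: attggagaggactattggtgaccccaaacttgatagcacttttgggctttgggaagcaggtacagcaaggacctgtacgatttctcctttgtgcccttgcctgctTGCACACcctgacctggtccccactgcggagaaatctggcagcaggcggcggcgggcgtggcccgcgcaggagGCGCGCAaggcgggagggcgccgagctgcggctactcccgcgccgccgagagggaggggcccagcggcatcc

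The potassium-independent exchangers of the Slc8 family were close to equal. Slc8a1 (NCX1) was at 4.70 TPM with Aβ against 4.21 TPM in the control (1.05, 0.894 to 1.24), and Slc8a3 (NCX3) at 3.88 and 4.12 TPM (0.965, 0.795 to 1.17). Slc8a2 stayed under 1 TPM on 23 and 25 reads.

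Ion pumps build the gradients these exchangers use. Of 20 measured genes for sodium, potassium and calcium pumps and their regulators, 8 were higher by reads and 1 (Fxyd6, 0.849, 0.765 to 0.942) lower. This stood beside 12% and 12.5% of all measured genes, and the median log2 ratio of the list was 0.10. The list was counted more deeply, with a median of 2387.5 reads over both libraries against 1002 for all measured genes. By the size of their ratio, Atp2a3, a calcium pump of the endoplasmic reticulum, had 1.44 (1.32 to 1.56), the pump subunit Atp1b1, whose reads were not whole, 1.19 (1.12 to 1.28), and the pump regulator Fxyd1 1.33 (0.922 to 1.93). For the regulator gene Fxyd2 the units parted, with a lower TPM in the Aβ library (52 against 134.6) on similar reads (194 against 184).

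Of the 6 measured cation-chloride cotransporters, 2 were lower by reads with Aβ and 0 higher, beside 12.5% and 12% of all measured genes. NKCC1, the product of Slc12a2, loads cells with sodium, potassium and chloride, while the KCC proteins export potassium and chloride. Slc12a2 was at 72.1 TPM with Aβ against 78.9 TPM in the control, on 4595 and 5065 reads (0.905, 0.869 to 0.942).

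The importer gene was thus slightly lower. The exporter genes Slc12a4, Slc12a7 and Slc12a5 were not called. Slc12a4 (KCC1) stood at 29.0 and 28.6 TPM (1.00, 0.920 to 1.09) and Slc12a7 (KCC4) at 14.1 and 14.3 TPM (0.975, 0.877 to 1.08). The neuronal exporter gene Slc12a5 (KCC2) was low, at 1.73 and 2.14 TPM on 93 and 116 reads (0.8, 0.602 to 1.06). Summed over the 8 genes, the family had a read ratio of 0.926 (0.898 to 0.956). Slc12a8, under 1 TPM in both libraries, had 2 reads with Aβ against 10 without, and was alone among the 29 low carriers in having an interval that excluded 1.

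The kinases and channels of volume control did not lean. Of 20 measured, 2 were higher and 2 lower by reads, beside 12% and 12.5% of all measured genes, and the median log2 ratio was 0.00. Wnk1, whose kinase acts on NKCC1 through the SPAK kinase, was higher at 73.2 and 67.8 TPM (1.07, 1.03 to 1.10), and Stk39, which encodes SPAK, had 1.10 (1.00 to 1.22, with the lower bound just under 1). Clcn5 (0.893, 0.669 to 1.19) and Wnk2 (0.907, 0.756 to 1.09) had the other ratios farthest from 1 in this list.

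Iron carriers gave the highest ratio, on few reads. Slc40a1 (gene number 170840) encodes ferroportin, the known iron exporter of mammalian cells. It was at 1.52 TPM with Aβ against 0.41 TPM in the control, so that only its Aβ level passed the 1 TPM minimum. Its 37.75 and 10.20 estimated reads gave a ratio of 3.79 (1.85 to 8.53) from the rounded numbers. Because these estimated reads are not whole, some may be shared with other gene models, which was not checked.

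Iron entry genes were far more abundant than this exporter. Slc11a2 (DMT1), which takes iron out of endosomes, was at 44.6 TPM with Aβ against 43.7 TPM in the control (1.01, 0.936 to 1.09). Slc11a1 (NRAMP1), known from the phagosomes of macrophages, was at 23.7 and 18.3 TPM on 422 and 326 reads (1.29, 1.11 to 1.5). Of 9 measured microglia markers, 0 were higher and 3 lower by reads, beside 12% and 12.5% of all measured genes. Of these markers, C1qa was at 53.4 and 80.2 TPM (0.672, 0.589 to 0.765) and Itgam at 15.4 and 13.6 TPM (1.12, 0.986 to 1.27). Their part in the difference of Slc11a1 was not tested. Slc11a1 appears in 25 of the 282 terms of the authors' deposited table for genes higher with Aβ, among them the response to lipopolysaccharide, with a fold enrichment of 3.54 over 30 genes. The authors' deposited table also lists Slc40a1 under leukocyte homeostasis and Slc24a3 under ossification, 1 term each, and no other carrier of these families.

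Iron genes outside the carriers went both ways, with 5 higher and 5 lower by reads among 22 measured and a median log2 ratio of 0.03. The shares called over all measured genes were 12% and 12.5%, at a median of 1002 reads over both libraries against 1944.5 for this list. The transferrin receptor gene Tfrc stood at 102 and 101 TPM (1.00, 0.962 to 1.04). The ferroxidase gene Heph had 40 and 72 reads (0.554, 0.367 to 0.827) and the metalloreductases Steap4 0.629 (0.471 to 0.836) and Steap2 1.33 (1.02 to 1.72). The ferritin genes Fth1 and Ftl1, with reads that were not whole, each had a ratio of 1.05 (1.03 to 1.07 and 1.03 to 1.08).

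Copper uptake genes were not called. Slc31a1 (CTR1), the copper importer, was at 53.1 TPM with Aβ against 47.7 TPM in the control, on 615 and 551 reads (1.11, 0.991 to 1.251). Slc31a2, its endosomal relative, was at 8.21 and 8.94 TPM (0.917, 0.713 to 1.18).

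**Figure D3:**
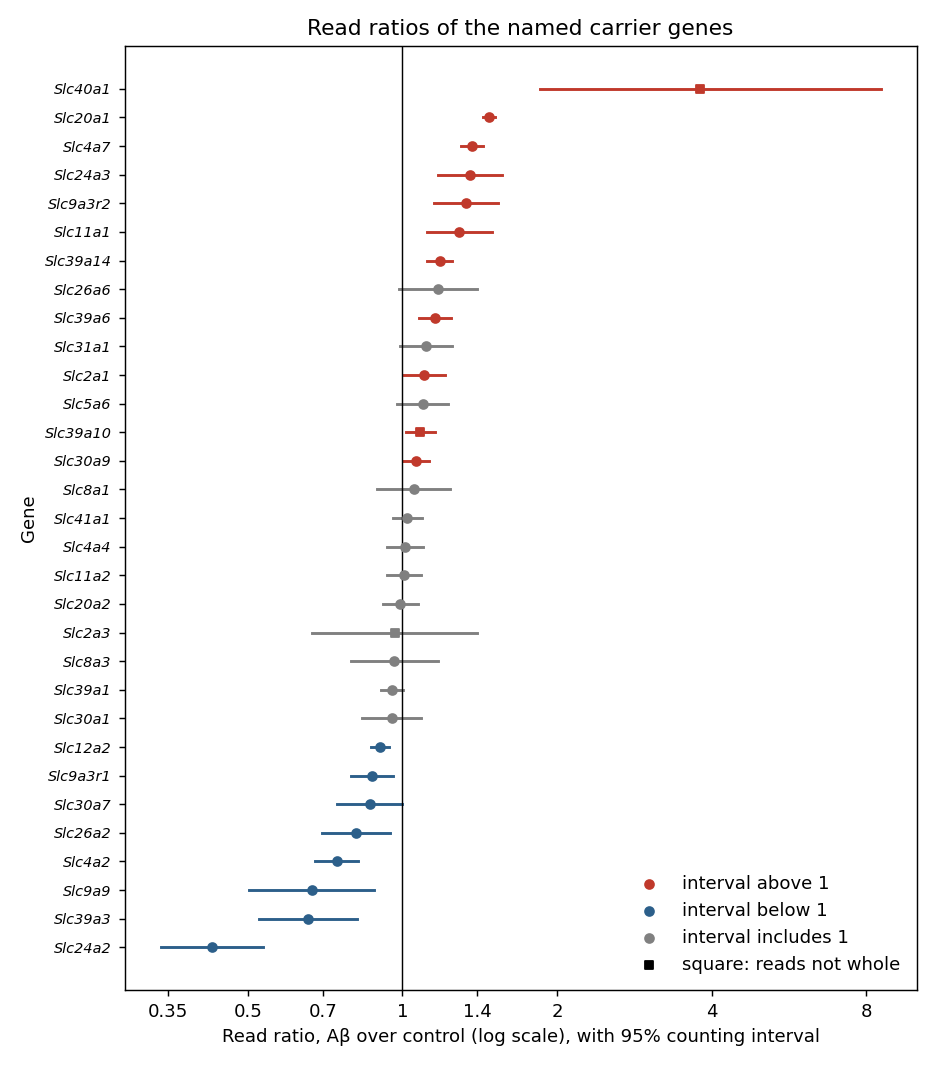
Read ratio of Aβ over control (x axis, log scale) with its exact 95% counting interval for 31 named carrier genes (y axis), 1 library per group. Intervals above 1 are red (11 genes), those below 1 blue (8 genes) and those that include 1 grey, with squares for genes whose reads were not whole; Slc40a1 has the widest interval and Slc20a1 among the narrowest.

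Of the 23 zinc carriers, 20 were measured, with summed levels of 701 TPM with Aβ against 698 TPM in the control. By reads 4 of the 20 were higher and 2 lower, beside 12% and 12.5% of all measured genes. Of the importers, Slc39a1 (ZIP1) was the most abundant, at 146 and 155 TPM on 3078 and 3220 reads (0.953, 0.907 to 1.00, with the upper bound just over 1). Slc39a7, the zinc carrier of the endoplasmic reticulum, was at 71.8 and 75.7 TPM (0.934, 0.867 to 1.00) and was not called either.

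By reads, 3 importer genes were higher with Aβ. Slc39a14 (ZIP14), which also carries iron and manganese, was at 57.0 TPM with Aβ against 47.6 TPM in the control, on 2697 and 2273 reads (1.18, 1.12 to 1.252). Slc39a6 (ZIP6) was at 58.0 and 49.7 TPM, on 1654 and 1425 reads (1.16, 1.08 to 1.24). Slc39a10 (ZIP10), the close relative of ZIP6, with reads that were not whole, was at 39.5 and 36.2 TPM (1.08, 1.02 to 1.16).

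Slc39a3 went the other way. This gene (number 314637) encodes ZIP3, an importer of the same subfamily as ZIP1, and was at 12.7 TPM with Aβ against 19.4 TPM in the control. Its 140 and 213 reads gave a ratio of 0.656 (0.526 to 0.815). The remaining measured ZIP genes, Slc39a4, Slc39a5, Slc39a8, Slc39a9, Slc39a11, Slc39a12 and Slc39a13, had ratios from 0.767 to 1.2 with intervals that included 1, and Slc39a2 had 1 read with Aβ and 0 in the control.

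Among the Slc30 genes, differences were small. Slc30a9 was the most abundant, at 95 and 89.6 TPM on 2409 and 2257 reads (1.06, 1.00 to 1.13, with the lower bound just over 1). Slc30a7, a carrier of the secretory pathway, was at 19.4 and 22.4 TPM on 350 and 404 reads (0.864, 0.747 to 1.00, just under 1). Its secretory neighbours Slc30a5 and Slc30a6 had ratios of 0.997 (0.916 to 1.09) and 1.00 (0.846 to 1.19). Slc30a4, of endosomes and lysosomes and with reads that were not whole, was at 30.6 and 28.3 TPM (1.07, 0.998 to 1.15), and Slc30a3, known from synaptic vesicles, at 23.9 and 26.02 TPM (0.899, 0.781 to 1.03).

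Slc30a1 (ZnT1), the zinc exporter of the plasma membrane, is a known target of the zinc-sensing transcription factor MTF-1, which binds metal response elements. It stood at 18.7 TPM with Aβ against 19.5 TPM in the control, on 450 and 471 reads (0.953, 0.836 to 1.09). The 250 bases before its RefSeq start are shown for these elements (GRCr8, chr13:106021769-106022018, plus strand), with matches in capitals.

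Slc30a1: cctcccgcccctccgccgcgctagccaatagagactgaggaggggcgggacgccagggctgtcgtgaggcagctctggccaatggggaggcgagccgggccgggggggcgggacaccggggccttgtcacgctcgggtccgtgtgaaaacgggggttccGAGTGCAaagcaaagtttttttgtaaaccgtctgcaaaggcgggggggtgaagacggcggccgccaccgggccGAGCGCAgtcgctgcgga

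The letters searched were TGCACNC or TGCGCNC on either strand. Slc30a1 held 2 matches, beginning 91 and 18 bases before the start, and Slc24a2 also held 2, beginning 145 and 72 bases before it. Of the 76 carrier genes matched to a RefSeq promoter, 29 (38.2%) held a match in these 250 bases, and of all 27457 promoters 21.2% did. The carrier promoters also had more G and C, with a median of 63.4% against 52.0%. A match is a description of the letters and not evidence of binding. The AP-1 letters TGANTCA were found in 3 of the 76 (3.95%) and 6.36% of all promoters, the E-box CACGTG in 13 (17.1%) and 5.79%, the GC box GGGCGG in 39 (51.3%) and 32.4%, and TGACGTCA in 0 of 76 and 1.70%.

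Other MTF-1 targets and metal handlers leaned little. Of 16 measured zinc and copper genes outside the carriers, 3 were higher and 0 lower by reads, beside 12% and 12.5% of all measured genes. The median log2 ratio of the list was −0.03. The metallothionein Mt3 was among the most abundant genes, at 13602 TPM with Aβ against 12994 TPM in the control (1.15, 1.12 to 1.18). Its difference was smaller by TPM, with a log2 ratio of 0.07. Mt2A, with reads that were not whole, had a read ratio of 1.07 (1.02 to 1.12). By TPM Mt2A was slightly lower with Aβ (4488 against 4588). Mt1 stood at 270 and 317 TPM (0.926, 0.782 to 1.10). Besides Steap2, the ratios farthest from 1 on 50 or more reads were those of the copper pump Atp7b (0.770, 0.557 to 1.06) and of Cox11 (1.17, 0.990 to 1.39), whose reads were not whole.

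Magnesium carriers were close to equal in both libraries. Slc41a1, a sodium-magnesium exchanger, was at 38.8 and 37.6 TPM (1.02, 0.957 to 1.09), Slc41a3 at 34.9 and 36.9 TPM (0.942, 0.849 to 1.04) and Slc41a2 at 11.2 and 10.8 TPM (1.03, 0.905 to 1.17). In the list of phosphate and magnesium genes outside the carriers, 3 of 14 were higher and 3 lower by reads. This stood beside 12% and 12.5% of all measured genes, and the median log2 ratio of the list was 0.04. Among its Cnnm genes, linked to magnesium handling, Cnnm1 had a ratio of 1.43 (1.15 to 1.79), Cnnm2 of 0.651 (0.505 to 0.835) and Cnnm4 of 0.850 (0.724 to 0.998), while Cnnm3, with the most reads of the 4, was at 0.984 (0.901 to 1.07).

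**Figure D4:**
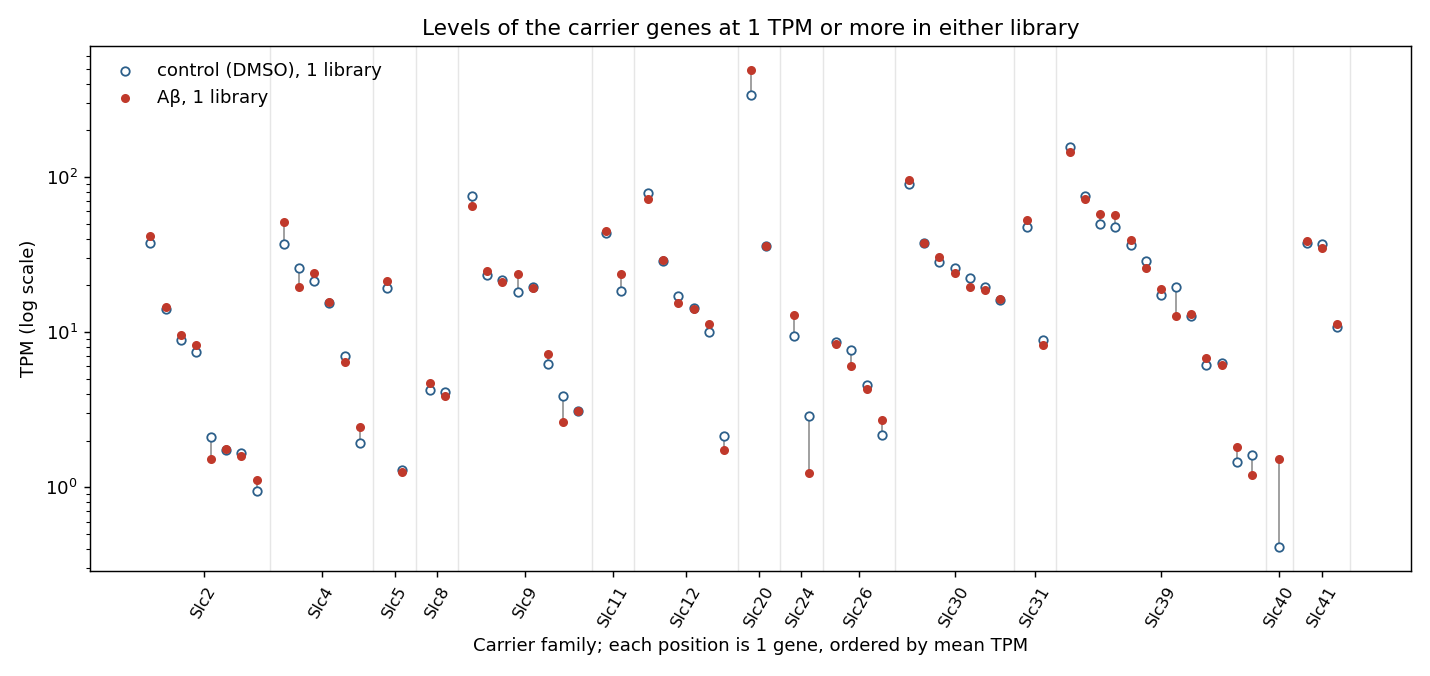
TPM (y axis, log scale) of the 68 measured carrier genes in the control library (open blue) and the Aβ library (red), 1 library each, with genes grouped by family along the x axis and ordered by mean TPM. Slc20a1, the first point of Slc20, stands above all others, and the points of most genes nearly coincide.

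Glucose carriers were led by Slc2a1. This gene encodes GLUT1, the main glucose carrier of glia, and was at 41.9 TPM with Aβ against 37.7 TPM in the control, on 992 and 897 reads (1.10, 1.01 to 1.21). Slc2a3, which encodes the neuronal carrier GLUT3 and had reads that were not whole, was at 1.6 and 1.67 TPM (0.966, 0.668 to 1.4). The other measured members were Slc2a13, a proton-inositol cotransporter at 14.6 and 14.0 TPM, and Slc2a8, Slc2a6, Slc2a9, Slc2a12 and Slc2a10. Their ratios ran from 0.686 (Slc2a9, a urate carrier, 0.456 to 1.02, on 44 and 64 reads) to 1.17 (Slc2a10), with intervals that included 1. The insulin-responsive carrier gene Slc2a4 had 5 and 4 reads, and the fructose carrier gene Slc2a5 had 5 and 6.

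Glucose genes beyond the carriers were evenly split, with 8 higher and 8 lower by reads among 24 measured and a median log2 ratio of −0.01. Over all measured genes the shares were 12% and 12.5%, but these glucose genes were counted more deeply. Their median number of reads over both libraries was 9055.5, against 1002 for all measured genes. Txnip and Arrdc4, whose products draw GLUT1 away from the cell surface, were both lower with Aβ. Txnip was at 11.7 and 15.2 TPM (0.766, 0.656 to 0.893) and Arrdc4 at 3.74 and 4.75 TPM (0.787, 0.627 to 0.986). The hexokinase Hk3 had 112 and 88 reads (1.27, 0.952 to 1.70).

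Among the sodium-coupled Slc5 carriers, Slc5a6, the importer of biotin and pantothenate, was the most abundant at 21.3 and 19.3 TPM on 618 and 563 reads (1.09, 0.975 to 1.23). The inositol carrier gene Slc5a3 had 28 and 29 reads (0.963, 0.552 to 1.68). The other 5 genes of this family were below 1 TPM.

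The 35 measured carriers outside the naming rule had read ratios from 0.686 to 1.23, and each interval included 1. The 29 carriers below 1 TPM had at most 81 reads in a library, and 5 of them had 0 reads in 1 library. Of these low genes the deepest was Slc9a3, an exchanger known from epithelia, with 59 and 81 reads. Their differences were not detectable at this depth, apart from that of Slc12a8.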

How the data were processed

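The submitters' processing notes name Bowtie2 and the build Rnor_6.0 for the 2 libraries; no source used here names the counting tool or annotation. The authors' deposited table gives expected counts (estimated reads, some not whole), TPM and FPKM for 17049 genes, and a column named as normalized that is the count rounded up, taken as a score and not used. The authors' deposited enrichment table gives a fold enrichment ratio, a p-value and the count of genes for each term, per the file headers. Carriers were taken by symbol, and all 97 gene numbers were found in RefSeq (GRCr8), 95 with the same symbol. The members and lists were chosen with earlier results of these data known. With 1 library per group no test was made. Reads were rounded and scaled to library totals. Intervals are exact (Clopper-Pearson, conditional on the reads of both libraries, scipy 1.17.1). They cover counting error only, since there was 1 library per group. Reads here carry no molecular identifiers, so copies of 1 molecule may count as separate reads and the intervals may be too narrow. The log2 ratio used TPM with a pseudocount of 1, which understates changes of low genes. Values were named for carriers that were measured and called by reads or past 1.5-fold, for the most abundant of each family, and for a set list; in other lists the 3 largest ratios on 50 or more reads were named. Carriers and list genes named beyond this were chosen after their values were seen. Shares of reads between paired genes were not in the plan and restate the read ratios of those genes. The steps were tested on simulated data that held counting error but no variation between cultures. Some carriers and list genes that the rule names are counted but not reported by name here.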

Additional observations from a re-analysis of the deposited data

How the results depend on the processing

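No paired analysis was possible because each group has 1 library, and for the same reason none could be left out. Counts of carriers called by reads stayed within 1.5 times under each alternative run: scaling by the median ratio called the same numbers (11 higher, 9 lower), and a 99% interval called 8 and 7. The calls of Slc2a1, Slc39a10, Slc30a9 and Slc30a7 were among those lost at 99%. The direction counts, 38 higher and 30 lower, became 50 and 47 with no filter on low values and 31 and 20 at 5 TPM or more. The count past 1.5-fold, 1 higher and 1 lower, stayed so by CPM and with no filter on low values. It was 0 higher and 0 lower at a fold of 2 or at 5 TPM or more, 6 higher and 4 lower at the lowest fold tried, 2 lower with a pseudocount of 0.1, and 0 higher without genes whose reads were not whole or with 50 or more reads. The summed read ratio moved to 1.02 without Slc20a1. This last alternative and the minimums of 50 and 200 reads were chosen after seeing the data. Of the 33 named carriers, 32 had a TPM ratio within their read interval, and Slc26a6, at 0.972, did not. By FPKM, Slc20a1 was at 1.43 and Slc26a6 at 0.960, and the other 31 were within their intervals. Depth limits the carriers below 1 TPM.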
